A study of Mus musculus with 8 samples.

Results

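The cytoplasmic ribosomal protein genes were measured by RNA-seq in the CA1 field of the mouse hippocampus, in mice with a conditional knockout of Brpf1 and in wild-type mice. The set was taken by gene symbol, as Rpl or Rps followed by a number with or without a paralog suffix, together with Rplp0, Rplp1, Rplp2 and Rpsa. It held 87 of the 34094 genes in the table, and all 87 were among the 26135 genes with enough reads to test. Of the 87, 77 encode standard ribosomal proteins and are called core genes here, 46 of the large and 31 of the small subunit. Another 7 are variant paralogs (Rpl3l, Rpl7l1, Rpl22l1, Rpl36al, Rpl39l, Rps4l and Rps27l) and 3 are copies of a core gene (Rpl6l, Rps3a2 and Rps3a3). The GENCODE M21 annotation of mouse lists Rpl6l, Rps3a2 and Rps3a3 as processed pseudogenes and Rps4l as a transcribed processed pseudogene, so these 4 names do not stand for known proteins there. Fau and Rack1 encode proteins of the cytoplasmic ribosome too, but their symbols fall outside the rule, and they are given separately.

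Both groups were C57BL/6 mice of 2 months, with 4 libraries each. The cKO libraries carry the label cko type with the words Brpf1 knockdown, and the controls are labelled wild type. Which Cre line, driver or deleted exons were used, and whether the WT mice carried a floxed allele or a Cre, is a detail these sources leave out. A protocol speaks of 3 pairs of mice while each group has 4 libraries, so p-values below measure the spread between libraries, which may be partly technical.

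The ribosome reads mRNA on its small subunit and joins amino acids on its large subunit. Ribosomal proteins are made in the cytoplasm, carried into the nucleolus and assembled there with ribosomal RNA, and most of their mRNAs begin with a pyrimidine tract (a TOP motif) through which mTOR signalling controls their translation together. In hippocampal neurons ribosomes and ribosomal protein mRNAs are also found in dendrites and axons, where local translation serves synaptic plasticity. BRPF1 is a scaffold of histone acetyltransferase complexes, and its cKO is set against WT here for the mRNA level of each ribosomal protein.

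The targeted gene was lower in every cKO library than in any WT library. Brpf1 had 945 ± 87.3 normalized reads in cKO and 1415 ± 55.1 in WT (SD, n = 4 each), and the cKO mean was 66.8% of the WT mean. An exact permutation test, two-sided, gave p = 0.0286, which no split of 8 libraries into 4 and 4 can undercut. Normalized reads are read counts over the size factor that the authors set for a library. Reads on genes ran from 40330226 to 46559795 in cKO and from 42346644 to 49897832 in WT libraries. The 5 markers of CA1 pyramidal neurons were all present and summed to between 12399 and 17515 normalized reads in cKO and between 10290 and 17584 in WT libraries. Markers of the dentate gyrus, glia, vessels, blood, ependyma and choroid plexus were present as well, and no gene of any of these lists passed the test between the groups. The sum of 10 choroid plexus markers ran from 10911 to 48673 normalized reads in cKO and from 5561 to 170582 in WT, with a negative fold change for all 10. The 6 ependymal, 9 oligodendrocyte and 5 erythrocyte markers had negative fold changes too, with sums between 1177 and 1648 in cKO and 1254 and 2409 in WT for ependyma. Oligodendrocyte markers summed to between 90714 and 142025 in cKO and 111970 and 166460 in WT, and erythrocyte markers to between 5997 and 13256 in cKO and 5844 and 17602 in WT. Fold changes were positive for 5 of 6 microglia and 4 of 5 interneuron markers, of which 0 passed the test. Interneuron markers summed to between 25432 and 31161 in cKO and 21858 and 28320 in WT. No marker of these lists was at 0 in all libraries, and their part in the results below was not tested.

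The sequences at the transcription start show the pyrimidine tract these mRNAs are known for. RefSeq promoters (build GRCm38.p6) were found for 63 of the 87 genes. The lines below give the 15 bases before and the 15 bases after the annotated start on the gene's own strand, with a run of at least 8 C or T in capitals. Rpl14 and Rpl28 are shown as the core genes whose groups did not overlap, Rplp2 as the stalk gene with the largest fold change, and Rpl41 and Rps13 as core genes with no such run near the start.
Rpl14, chr9:120571502-120571531, plus strand: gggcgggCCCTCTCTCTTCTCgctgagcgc
Rpl28, chr7:4792950-4792979, plus strand: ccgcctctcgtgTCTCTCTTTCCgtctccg
Rplp2, chr7:141447636-141447665, plus strand: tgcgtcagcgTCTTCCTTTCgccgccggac
Rpl41, chr10:128549154-128549183, minus strand: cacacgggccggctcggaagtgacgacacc
Rps13, chr7:116334176-116334205, minus strand: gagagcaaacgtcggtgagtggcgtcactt

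The pyrimidine runs of Rpl14, Rpl28 and Rplp2 were 14, 11 and 10 bases long and spanned the start. Over all annotated starts of the family, 41 of 75 (54.7%) had a run of at least 8 C or T within 25 bases of the start, against 24.1% of 32851 RefSeq promoters. The letters CCGGAA, the core of an ETS factor site, stood on either strand within 250 bases before to 50 bases after the start in 48.0% of the family's promoters and in 14.9% of all. ATGGCGG, part of the YY1 motif, stood there in 18.7% of the family's promoters and in 4.05% of all. TATAAA stood in 9.33% of the family's promoters and in 13.6% of all. These are matches of letters in fixed windows, and a window without one says nothing on the factor.

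None of the 87 genes passed the test between cKO and WT. With limma on log2(normalized reads + 1) and Benjamini-Hochberg adjustment over all genes tested, 0 of 87 had an adjusted p under 0.05, where 0.0191% of all genes did (0.00765% higher and 0.0115% lower in cKO). The lowest adjusted p of the family was 0.519, for Rps4l. Brpf1 itself did not pass this test (limma adjusted p = 0.132), while its FDR in the authors' deposited table was 1.47e-07. Failing the test therefore does not show that a gene is unchanged. Without adjustment 1 of 87 had p under 0.05, again Rps4l, against 8.67% of all genes, and limma-voom on recovered reads called 0 as well, with 2 of 87 (Rps4l and Rpl26) under 0.05 unadjusted. In the authors' deposited table, the lowest FDR of the family was 0.292, for Rps4l, and 0 members were under 0.05, where 0.657% of all genes were. RNA from bulk tissue cannot tell fewer cells of a type from less RNA per cell.

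The estimates were also tight around 0. The median log2 fold change (cKO over WT) was −0.02 over the family, and it was −0.02 over all genes tested. Quartiles ran from −0.07 to 0.02 in the family and from −0.26 to 0.14 over all genes. Other coding genes averaging 10 or higher in log2 leaned up in cKO. By length class, their median differences from the 8-library mean averaged 0.02 to 0.04 in cKO and −0.03 to −0.01 in WT. Core genes leaned the other way, at −0.0072 ± 0.131 in cKO and 0.0102 ± 0.141 in WT (SD, n = 4 each). Whether the family differs from those coding genes was not tested. Of the 87, 63 lay within 0.1 of 0 on the log2 scale and 83 within 0.2, against 8041 and 13728 of the 26135 genes tested. The 95% interval of 83 members stayed inside a 1.5-fold change in either direction, as it did for 10881 of all genes. The other members were the core genes Rpl26 and Rpl41 and the barely detected Rpl3l and Rpl39l. Standard errors of the core genes ran from 0.06 to 0.19 with a median of 0.10, on at least 1372 reads per gene and library. Over all genes tested the median standard error was 0.24, so the family and all genes were not measured with equal precision.

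Fold changes were small in both subunits. In the large subunit, 15 of 46 genes had a positive and 31 a negative fold change, with a median of −0.01. In the small subunit, 10 of 31 were positive and 21 negative, with a median of −0.02. Over all 87, 28 were positive (32.2%), against 47.3% of all genes. That split turned on which libraries were counted: it was 57 positive of 86 tested without cKO replicate 4 and 13 of 87 without WT replicate 3. The ratio of summed small to large subunit reads was 0.633, 0.669, 0.641 and 0.648 in the 4 cKO libraries and 0.646, 0.669, 0.650 and 0.658 in the WT libraries. The groups overlapped in this ratio, whose means were 0.648 ± 0.0156 in cKO and 0.656 ± 0.0102 in WT (SD, n = 4 each).

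**Figure D1:**
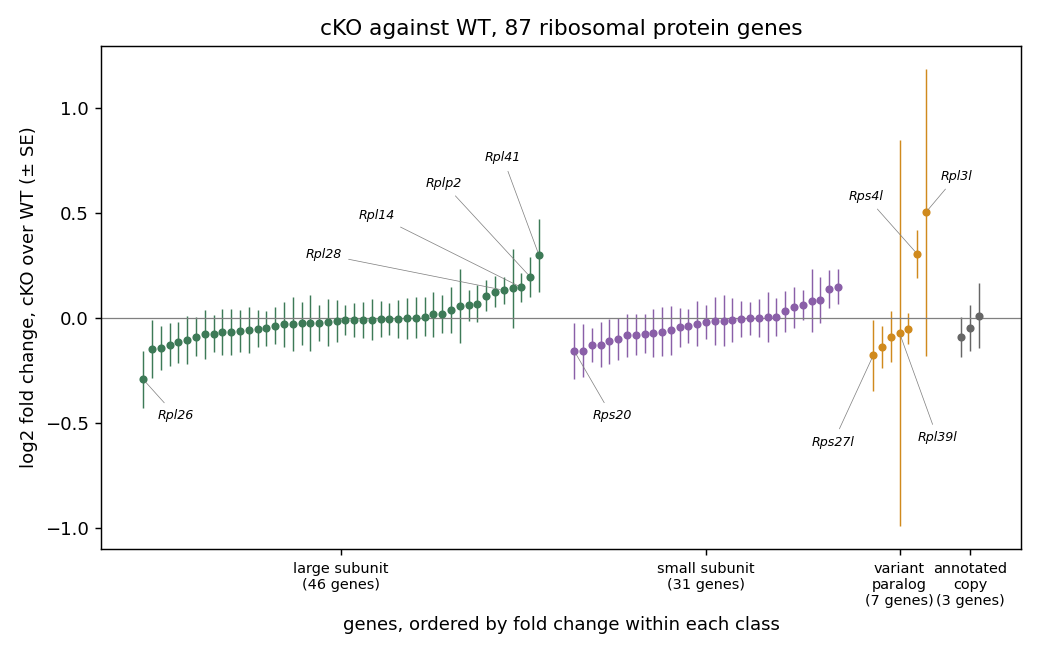
Log2 fold change of cKO over WT with its standard error (vertical axis) for each of the 87 ribosomal protein genes, ordered by value within large subunit, small subunit, variant paralogs and copies (horizontal axis). Core genes run from −0.29 (Rpl26) to 0.30 (Rpl41), and the longest error bars belong to Rpl3l and Rpl39l, which had few reads.

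In 3 genes the groups did not overlap, and in all of these cKO was higher: Rpl14, Rpl28 and Rps4l. Over all genes tested 4.92% had groups that did not overlap: 2.57% were higher in every cKO library and 2.35% were lower in every one, and 0 of the 87 were lower in that sense, so 3 of 87 is near the background. Rpl28, a large subunit protein, had 4558, 4755, 4512 and 4881 normalized reads in the cKO libraries, against 4399, 4128, 4203 and 4324 in WT. The lowest cKO library was just above the highest WT library. Its log2 fold change was 0.13 (SE 0.06, 95% interval −0.01 to 0.27, limma adjusted p = 0.590). The gene overlaps Ube2s, a ubiquitin-conjugating enzyme gene, on the opposite strand. Ube2s had 1808 ± 50.8 normalized reads in cKO and 1415 ± 166 in WT, also without overlap (log2 fold change 0.36, SE 0.09). The kit was stranded, but the strand setting of the counting is not stated, so reads of these 2 genes may not have been told apart. Ube2s and, further on, Tmtc1 were looked up after the values of Rpl28 and Rps4l were seen.

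Rpl14, another large subunit protein, had 5649, 6280.5, 5870.2 and 5535 normalized reads in cKO, against 5413, 5282, 4918 and 5466 in WT. The gap between the groups was 5535 against 5466 reads, smaller than the spread within either. Its log2 fold change was 0.15 (SE 0.07, 95% interval −0.01 to 0.30, adjusted p = 0.590 in limma). No annotated gene overlaps Rpl14.

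**Figure D2:**
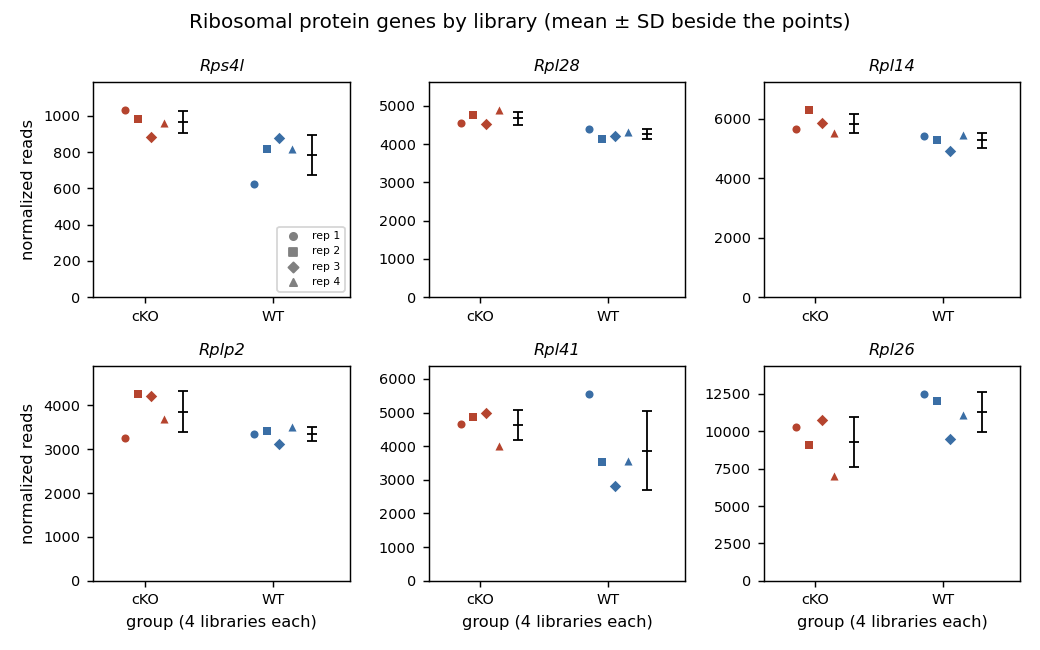
Normalized reads (vertical axes, from 0) of 6 ribosomal protein genes in the 4 cKO and 4 WT libraries, 1 symbol shape per replicate number, with the group mean ± SD beside the points. Rps4l, Rpl28 and Rpl14 have every cKO point above every WT point, while Rplp2, Rpl41 and Rpl26 overlap, with WT replicate 1 of Rpl41 at 5550 and cKO replicate 4 of Rpl26 at 6987.

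The remaining extremes of the large subunit overlapped between groups. The stalk is the flexible arm that recruits elongation factors. It is built from Rplp0, the anchor, and dimers of the acidic proteins Rplp1 and Rplp2. Rplp2 had 3262, 4257, 4206 and 3690.4 normalized reads in cKO, against 3353, 3412, 3115 and 3506 in WT, so that cKO replicate 1 lay below 3 WT libraries. Its log2 fold change of 0.20 (SE 0.09, adjusted p = 0.592 in limma) lay beside partners with nearly equal group means. Rplp1 had 14862 ± 1643 normalized reads in cKO and 14867 ± 1469.6 in WT, and Rplp0 had 8760 ± 878 in cKO and 8773 ± 745 in WT (SD, n = 4 each). The difference between the stalk genes was not tested.

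Rpl41 encodes the smallest ribosomal protein, a short peptide at the interface of the subunits. It had 4665, 4853, 4998 and 4005 normalized reads in cKO, against 5550, 3530, 2824 and 3565 in WT. WT replicate 1 was the highest of all 8 libraries and the other WT libraries were the lowest 3. The log2 fold change was 0.30 (SE 0.17, limma adjusted p = 0.634), and it was 0.49 without WT replicate 1. Rpl26, which sits near the exit of the peptide tunnel, had the most negative fold change of the family. It had 10290.5, 9099, 10755 and 6987 normalized reads in cKO, against 12495, 12051, 9466 and 11088 in WT. Its log2 fold change was −0.29 (SE 0.14, 95% interval −0.59 to 0.01, adjusted p = 0.587 in limma), and it was −0.16 without cKO replicate 4, the lowest library.

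Other large subunit genes of known role overlapped between groups too, and these were picked for their role after their values were seen. Rpl3, which lines the peptidyl transferase centre, had 20259 ± 1345 normalized reads in cKO and 18560 ± 1168 in WT (log2 fold change 0.13, SE 0.07). Rpl4, which reaches into the peptide tunnel, had 22326 ± 1689.6 in cKO and 22384 ± 1614 in WT. Rpl5 and Rpl11, which bind Mdm2 when ribosome assembly is disturbed, had log2 fold changes of −0.09 (SE 0.09) and 0.06 (SE 0.18). Rpl29 and Rpl36a had the largest negative fold changes after Rpl26, with −0.15 (SE 0.14) and −0.14 (SE 0.11), and both groups overlapped in each.

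In the small subunit, every core gene had overlapping groups. Rps20, at the head of the subunit, had 3331, 4191, 3778 and 3369 normalized reads in cKO, against 4163, 4021, 3193 and 5120.5 in WT. WT replicate 4 was the highest and WT replicate 3 the lowest of all 8, and the log2 fold change was −0.16 (SE 0.13). Rps6, the substrate of the S6 kinases downstream of mTOR, had 8067 ± 459.96 normalized reads in cKO and 8079.7 ± 667 in WT (SD, n = 4 each). Its 95% interval ran from −0.17 to 0.17 on the log2 scale, and it too was picked for its role. Rps27a, made as a fusion to ubiquitin, had a log2 fold change of −0.02 (SE 0.11).

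Variation between libraries was larger than the difference between groups, and it was shared across the family. Summed over the 87 genes, normalized reads were 555786, 644506, 612825 and 531019 in cKO, against 643658, 619672, 516687 and 592193 in WT. The cKO libraries lay inside the range of the WT libraries except for cKO replicate 2, at 644506 against 643658 in WT replicate 1. The family took 1.27%, 1.46%, 1.39% and 1.19% of reads on genes in cKO and 1.44%, 1.44%, 1.19% and 1.37% in WT. The log2 ratio of the summed group means, cKO over WT, was −0.02.

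Within each group 1 library was low across the family. WT replicate 3 was the lowest WT library in 73 of the 77 core genes (94.8%), and in 26.8% of all genes tested. All 31 small subunit genes had their lowest WT value there. cKO replicate 4 was the lowest cKO library in 57 of the 77 core genes (74.0%), and in 23.7% of all genes. cKO replicate 2 was the highest cKO library in 57 of the 77, and WT replicate 1 was the highest WT library in 49 of the 77. Expressed as the median difference from the mean of the 8 libraries on the log2 scale, the core genes stood at −0.08, 0.14, 0.06 and −0.15 in the 4 cKO libraries and at 0.13, 0.08, −0.19 and 0.02 in the WT libraries.

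**Figure D3:**
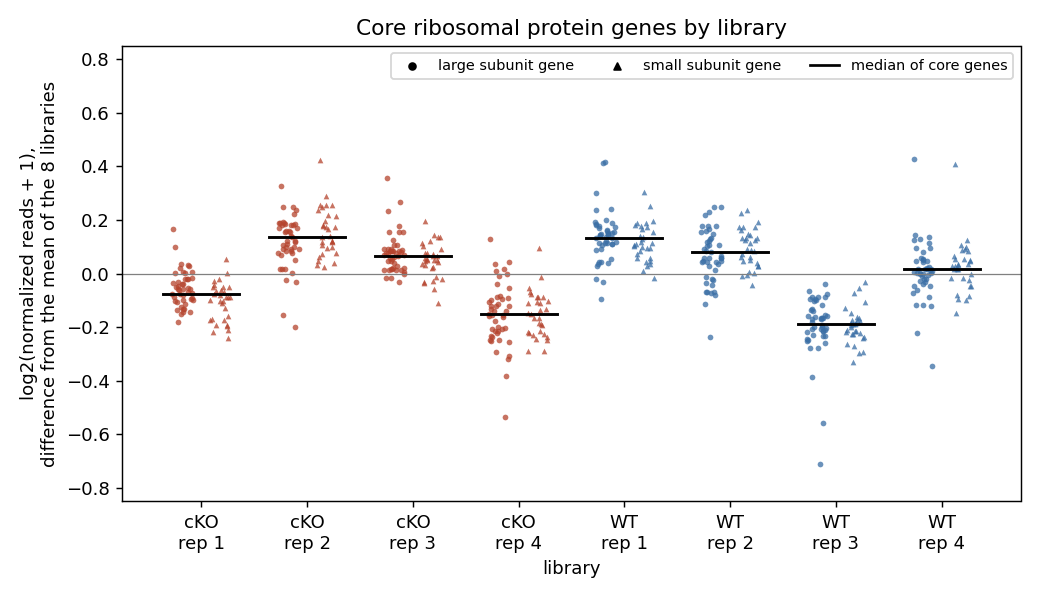
Difference of each core gene from its mean over the 8 libraries, in log2(normalized reads + 1) (vertical axis), for the 4 cKO and 4 WT libraries (horizontal axis), with circles for the 46 large and triangles for the 31 small subunit genes and a line at the median. Both subunits shift together, lowest in WT replicate 3 (median −0.19) and cKO replicate 4 (median −0.15).

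Other measures moved with these libraries. The mitochondrial genome took 11.5%, 12.4%, 11.03% and 10.2% of normalized reads in cKO and 14.3%, 12.5%, 10.6% and 12.3% in WT, lowest in the same library of each group. Summed ribosomal protein pseudogenes followed as well, with 36174, 42434, 39457 and 35418 normalized reads in cKO and 41568, 40694, 34026 and 38585 in WT. Reads that fit both a pseudogene and a family member may have been counted in either, so this sum may not be a separate measure. Other coding genes under 500 coding bases had a median difference of −0.10 in WT replicate 3 and −0.01 in cKO replicate 4. Other coding genes of 2000 coding bases or more stood at 0.08 and 0.09 there. The part of any of these in the family's pattern was not tested.

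Dividing every gene by the summed reads of the family in its library, an alternative chosen after seeing the data, removed the shared shift. The median log2 fold change was then −0.0040, and 42 of the 87 genes were positive. The groups did not overlap in 9 genes. Among these, Rpl3, Rpl14, Rps13 and Rps15 were higher in cKO, and Rpl5, Rpl35a, Rps3 and Rps3a1 were lower. Over all genes the same scaling gave 0.96% higher and 1.71% lower without overlap, so the share of the family, 9 of 87, is above the 2.67% of all genes, but the scaling is built from the family itself. The lowest adjusted p of a member under it was 0.911 (limma), and 0 members had an unadjusted p under 0.05. Rpl28 and Rps4l, which did not overlap before, overlapped after it.

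Levels of the 77 core genes spanned about an order of magnitude in both groups. They are given as normalized reads per kilobase of coding length. Rpl41, with 75 coding bases, was at 61735 ± 5851 in cKO and 51564 ± 15634 in WT (SD, n = 4 each). By whole transcript length it ranked 33 of 77. Rplp1 ranked 2 by coding and 1 by transcript length, at 43456 ± 4805 per coding kilobase in cKO and 43469 ± 4297 in WT. Rps29, Rps15, Rpl13a, Rps14, Rpl21 and Rpl26 followed, with means between 21340 and 39220 in cKO and between 25281 and 38896 in WT. From Rps15 down to Rpl26, neighbours in this order overlapped within their SD in both groups.

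The lowest core genes per coding length were Rpl18, Rps10, Rpl29, Rps13 and Rpl34. Rpl18 was at 5147 ± 453 in cKO and 5222 ± 376 in WT, and Rpl34 at 6967 ± 911 in cKO and 7347 ± 867 in WT. These levels are read counts per length and not protein output. The coefficient of variation between libraries had a median of 9.998% in cKO and 10.4% in WT. It ran from 3.68% (Rpl28) to 21.5% (Rps14) in cKO and from 2.55% (Rps9) to 30.3% (Rpl41) in WT.

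**Figure D4:**
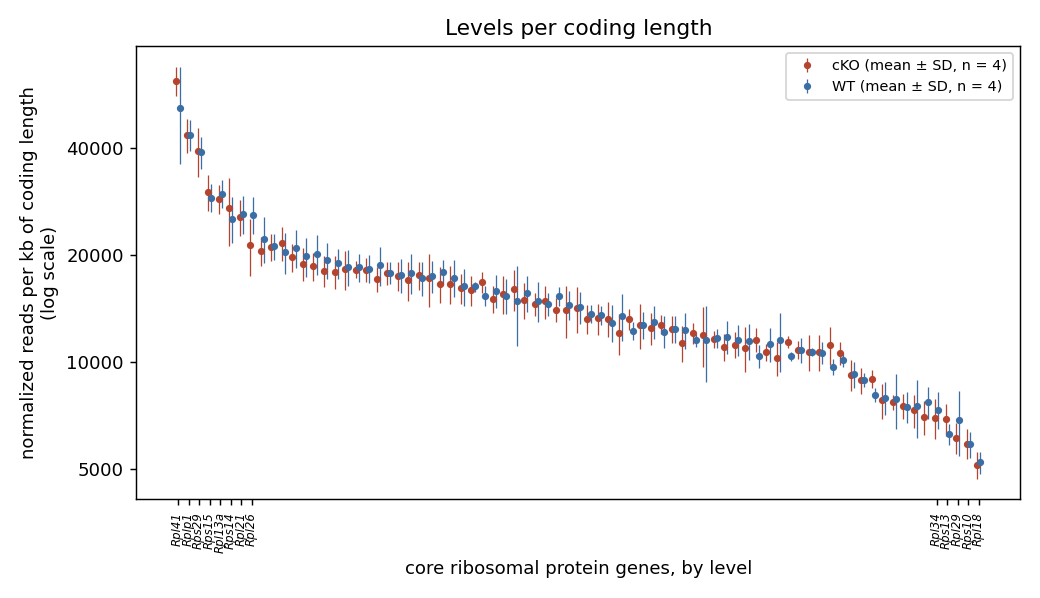
Normalized reads per kilobase of coding length (vertical axis, log scale) of the 77 core genes in order of level (horizontal axis, with the highest 8 and lowest 5 named), as mean ± SD of 4 cKO and 4 WT libraries. Levels run from Rpl41 at the top (61735 in cKO, 51564 in WT) to Rpl18 at the bottom (5147 in cKO, 5222 in WT).

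Among the variant paralogs, Rps4l had the lowest p of the whole family. Its parent Rps4x is the X-linked gene of a small subunit protein. Rps4l lies on chromosome 6 as 1 exon, and over 786 aligned bases it was 80.0% identical to the Rps4x coding sequence, with no shared run over 35 bases. The first 90 aligned bases are shown, with the 15 mismatches in capitals, since they bear on whether reads can be assigned to 1 of the pair.
Rps4x, coding bases 1 to 90: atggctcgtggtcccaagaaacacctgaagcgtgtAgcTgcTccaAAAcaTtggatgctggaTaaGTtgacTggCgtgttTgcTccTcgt
Rps4l, transcript bases 55 to 144: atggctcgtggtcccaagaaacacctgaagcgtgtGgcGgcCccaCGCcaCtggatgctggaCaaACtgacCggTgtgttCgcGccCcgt

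Rps4l had 1029.9, 982, 884 and 959 normalized reads in cKO, against 626, 818, 875 and 819 in WT. cKO replicate 3 exceeded WT replicate 3 by 884 to 875, and WT replicate 1 was the lowest. The log2 fold change was 0.31 (SE 0.12, 95% interval 0.05 to 0.56), and it ran from 0.20 to 0.36 with a library left out. Without WT replicate 1, or without cKO replicate 1, its unadjusted p in limma was not under 0.05. The adjusted p of limma was 0.519, from 0.0240 unadjusted, and over the alternatives it ran from 0.403 to 0.911. Rps4x had 11880 ± 1037 normalized reads in cKO and 12522 ± 1327 in WT. Rps4l thus made up 8.06%, 6.92%, 6.93% and 8.24% of the pair's reads in cKO, against 4.37%, 5.78%, 7.52% and 6.25% in WT, where WT replicate 3 lay above 2 cKO libraries. Rps4l lies within Tmtc1, which runs on the opposite strand. Tmtc1 had 3332 ± 366 normalized reads in cKO and 3291 ± 259 in WT (log2 fold change 0.01, SE 0.10).

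The other variants overlapped between groups. Rpl22l1 is a paralog of Rpl22, whose product is known in mouse to repress it. Rpl22l1 had 3129, 3447, 3554 and 2594 normalized reads in cKO, against 3835, 3706, 2943 and 3037 in WT. It made up 39.3% ± 3.18 of the pair in cKO and 41.9% ± 3.15 in WT (SD, n = 4 each). Rpl36al made up 44.6% ± 1.84 of its pair with Rpl36a in cKO and 44.5% ± 0.882 in WT. Rpl7l1 made up 15.4% ± 1.88 of its pair with Rpl7 in cKO and 15.3% ± 2.05 in WT.

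Rps27l, known in human cells as a target of p53, had 488, 613, 541 and 486 normalized reads in cKO, against 605, 832, 472 and 542 in WT. WT replicate 2 stood above all others and WT replicate 3 below all others, and the log2 fold change was −0.18 (SE 0.17, limma adjusted p = 0.784). It made up 13.2% ± 0.629 of its pair with Rps27 in cKO and 14.2% ± 2.01 in WT.

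**Figure D5:**
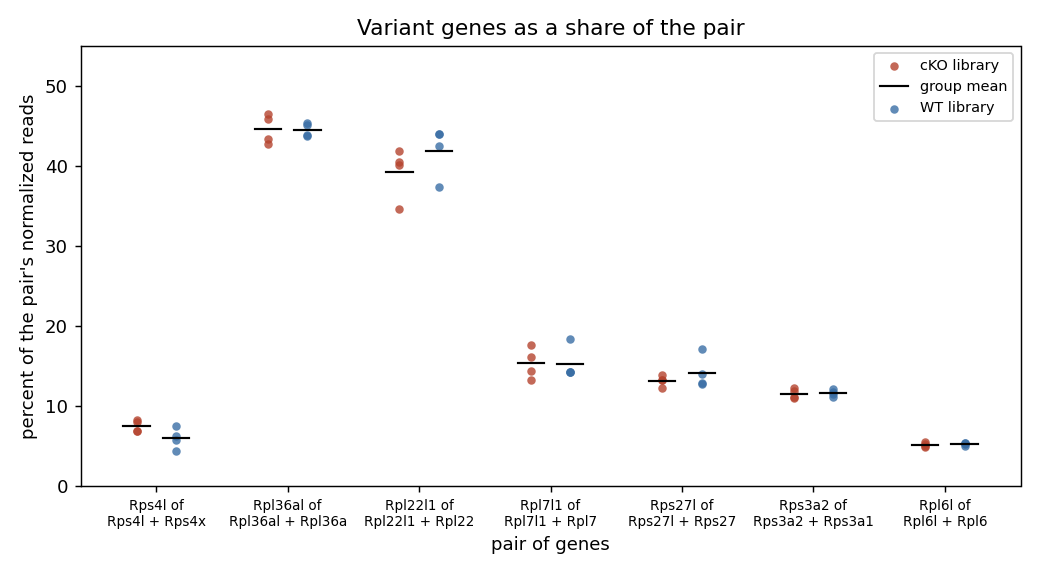
Share of a variant gene or copy in the normalized reads of the pair with its parent gene (vertical axis, percent from 0), for 7 pairs (horizontal axis), 1 point per cKO or WT library and a line at the group mean. Rps4l is at a mean of 7.54% in cKO and 5.98% in WT with overlapping points, and the other pairs differ by less between groups than within them.

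Rpl3l and Rpl39l were close to absent. Rpl3l is the form of Rpl3 found in skeletal and heart muscle. It had 2.12, 22.1, 7.65 and 7.66 normalized reads in cKO, against 2.08, 4.06, 6.51 and 10.4 in WT, and at most 0.101% of its pair with Rpl3. Rpl39l is the form of Rpl39 known from testis. It had 0, 3.01, 0 and 5.75 normalized reads in cKO, against 5.20, 0, 0 and 4.32 in WT, and the group totals were 9 reads in cKO and 10 in WT. No difference was detectable at this depth. The whole coding sequences of Rpl39 and Rpl39l show that this is not a pair of identical copies. They have the same length of 153 bases and differ at 23, printed in capitals.
Rpl39, coding bases 1 to 153: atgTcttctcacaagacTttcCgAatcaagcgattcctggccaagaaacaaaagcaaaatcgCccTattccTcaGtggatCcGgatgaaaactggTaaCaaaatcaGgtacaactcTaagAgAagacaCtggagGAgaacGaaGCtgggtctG
Rpl39l, coding bases 1 to 153: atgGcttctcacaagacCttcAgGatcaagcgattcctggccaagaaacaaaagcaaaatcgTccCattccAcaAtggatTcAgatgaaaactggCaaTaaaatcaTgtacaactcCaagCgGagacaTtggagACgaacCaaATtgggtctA

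The 3 copies are nearly identical to their parents, so their reads are uncertain. Rps3a2 was 99.5% identical to the coding sequence of Rps3a1 with a shared run of 317 bases, Rps3a3 was 98.9% identical to it with a run of 215, and Rpl6l was 98.7% identical to Rpl6 with a run of 354. A read inside such a run fits both places, and how the authors' counting placed it is not stated. The first 90 coding bases, identical in Rps3a1 and Rps3a2, show this.
Rps3a1, coding bases 1 to 90: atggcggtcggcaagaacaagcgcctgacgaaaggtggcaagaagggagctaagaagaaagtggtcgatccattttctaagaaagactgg
Rps3a2, transcript bases 1 to 90: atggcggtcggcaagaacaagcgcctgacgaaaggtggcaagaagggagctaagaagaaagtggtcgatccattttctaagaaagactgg

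As counted, Rps3a2 took 11.6% ± 0.556 of its pair with Rps3a1 in cKO and 11.7% ± 0.431 in WT (SD, n = 4 each). Rpl6l took 5.17% ± 0.281 of its pair with Rpl6 in cKO and 5.29% ± 0.210 in WT, and Rps3a3 1.39% ± 0.104 of its pair with Rps3a1 in cKO and 1.30% ± 0.0293 in WT. Of further pseudogenes named after ribosomal proteins, 153 had enough reads to test. None of these was called, where 0.0191% of all genes were, and 0 had an unadjusted p under 0.05 in limma, where 8.67% did. Without overlap, 3 were higher in cKO (Rps2-ps10, Rps13-ps2 and Rps13-ps4) and 2 lower (Rpsa-ps1 and Rpsa-ps9). These are 5 of 153, against 4.92% of all genes, and are not above the background. The lowest p among them belonged to Rps2-ps10, with 1305 ± 42.8 normalized reads in cKO and 1153 ± 89.2 in WT.

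Ribosomal proteins with other names lay within the range of the core genes. Fau, made as a fusion to a ubiquitin-like protein, had 5194 ± 420.4 normalized reads in cKO and 4977 ± 334 in WT. Rack1, a scaffold protein on the small subunit, had 6481 ± 489 in cKO and 6959 ± 384 in WT. Their log2 fold changes were 0.06 for Fau and −0.10 for Rack1, and the groups overlapped in both.

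Genes that make, supply or steer the ribosome were looked at as lists, and 0 members of any list passed the test, where 0.0191% of all genes did. Members without overlap that fell outside the rule for named genes were chosen after their values were seen. Elongation factors and other TOP mRNAs had 28 of 42 positive fold changes with a median of 0.05, where 47.3% of all genes were positive with a median of −0.02. The other coding genes averaging 10 or higher in log2 leaned up in cKO too. By length class, their median differences averaged 0.02 to 0.04 in cKO and −0.03 to −0.01 in WT. Whether this list or those below differ from such genes was not tested. Of the 42, 5 were higher in cKO without overlap, where 2.57% of all genes were. Eef1a2, the elongation factor form of mature neurons, had 29484, 26675, 30618 and 34230 normalized reads in cKO, against 20861, 24535, 26405 and 24228 in WT (log2 fold change 0.33, SE 0.09, limma adjusted p = 0.496). Its lowest cKO library was just above its highest WT library. Eif1, which helps select the start codon, had 9637 ± 455 in cKO and 8109 ± 686 in WT. The others without overlap were Eif3f, Eif3h and Eif6. Of these, Eif6, which keeps the subunits apart until the large one is mature, had 1289 ± 65.1 normalized reads in cKO and 1051 ± 123 in WT.

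Ribosome biogenesis genes had 52 of 88 positive fold changes with a median of 0.03, with 2 higher and 1 lower in cKO without overlap. Over all genes 2.57% were higher and 2.35% lower in that sense, so 3 of 88 is near the background. Mrto4, an assembly factor of the large subunit, had 1005 ± 43.8 normalized reads in cKO and 805 ± 106 in WT. Rrp7a, the other gene above WT in every cKO library, had 3617 ± 197 in cKO and 3223 ± 81.2 in WT. Utp11, of the small subunit processome, had 865 ± 86.9 in cKO and 1035 ± 59.7 in WT. Chaperones and export factors of ribosomal proteins had 9 of 16 positive with a median of 0.04. Xpo1, the exportin of ribosomal subunits, had 5543 ± 327 in cKO and 6146 ± 318 in WT. Aamp, whose yeast homolog is a chaperone of a ribosomal protein, had 5745 ± 156 in cKO and 5094 ± 220 in WT. It was the 1 of 16 without overlap, where 2.57% of all genes were higher in that sense.

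The list named for mTOR and the S6 kinases also held genes of other families, such as Mycl. It had 11 of 26 positive fold changes with a median of −0.04. Rps6ka4, a nuclear kinase of the ribosomal S6 kinase family, had 1477, 1641, 1479 and 1363 normalized reads in cKO, against 1148, 1172, 1170.4 and 1126 in WT. The groups did not overlap (log2 fold change 0.36, SE 0.08), but the limma adjusted p was 0.341. In the authors' deposited table it was the 1 gene of this list with an FDR under 0.05, at 0.00189, where 0.657% of all genes were under it. Mycl, of the Myc family, had 1502 ± 227 in cKO and 1165 ± 64.6 in WT, also without overlap. These are 2 of 26, against 2.57% of all genes that were higher in that sense.

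The ribosomal proteins of mitochondria, which are encoded by separate nuclear genes, had 56 of 78 positive fold changes with a median of 0.06, and 4 were higher in cKO without overlap (Mrpl19, Mrpl43, Mrpl51 and Mrps26), against 2.57% of all genes. Mrpl45 had 1473 ± 86.98 normalized reads in cKO and 1292 ± 68.7 in WT, and Mrps26 had 1954 ± 144 in cKO and 1733 ± 58.1 in WT. Housekeeping genes had 7 of 10 positive with a median of 0.13. Gapdh and Sdha were higher in cKO without overlap, as 2.57% of all genes were, and Sdha had 16924 ± 636 normalized reads in cKO and 14954 ± 510 in WT. Gapdh, the 1 gene of this list with an FDR under 0.05 in the authors' deposited table (0.00675, where 0.657% of all genes were under it), had 41683 ± 2028 in cKO and 34319 ± 1826 in WT (log2 fold change 0.28, adjusted p = 0.382 in limma, SE 0.07), and Actb had 27067 ± 2115 in cKO and 22109.6 ± 2356 in WT. The log2 fold change of Actb was 0.29 (SE 0.09). Neither gene passed the test, and both had fold changes above those of every core ribosomal protein gene but Rpl41.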

How the data were processed

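RNA-seq was made from hippocampal CA1 of 4 cKO and 4 WT libraries, with Trizol extraction and a stranded kit, per the labels' protocols. STAR, StringTie, DESeq2 and build mm9 are named in the submitters' processing notes, with no versions or roles. The authors deposited log2 values per gene and library, which equal log2(reads / size factor + 1): 100% of values were whole multiples of 1 read (tolerance 0.001). The deposited table also holds the authors' p-value and FDR, and 2 columns of group means that were not used.

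cKO was compared with WT by limma 3.58.1 (R 4.3.3; trend, robust, no covariate) on the deposited log2 values for genes that reached 1 normalized read in 4 or more libraries, with Benjamini-Hochberg adjustment over 26135 genes. Planned tests on counts gave way to limma because the table holds log2 values. The method was also run on simulated counts. These lacked the shift that the family shares within a library, so that run does not measure the method's power for this family. Fold changes on this scale understate the change of genes with few reads. Coding lengths and sequences of transcripts came from GENCODE M21 (GRCm38), promoters from RefSeq, and paralogs were aligned with Biopython 1.88. Alternatives were quantile normalization, scaling by total reads, no filter and a filter of 10, a pseudocount of 0.1, limma-voom, array weights, a replicate block, leaving out each library, and scaling by the family's summed reads.

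The family and all lists were chosen with earlier results of these data known. Genes named by rule are those without overlap, the 6 largest fold changes each way, the 8 highest and 5 lowest per coding length, variants with parents, and the 2 smallest p of each list. Some members are counted but not reported here by name.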

Additional observations from a re-analysis of the deposited data

Results flagged for a closer look

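In 3 of the genes described by name, 1 library stood apart from the other 3 of its group by Dixon's test, which by chance flags about 1 in 20 groups. With 34 members named by rule, each with a cKO and a WT group, 3 flags are no more than chance would give. Rpl7, a large subunit gene, had 8803.8 normalized reads in WT replicate 3, where the other WT libraries had between 10993 and 11127. Its paralog Rpl7l1 was highest there, with 1981.09 normalized reads against 1835 to 1850 in the other WT libraries. Rpl36a had 1866.29 normalized reads in cKO replicate 4, where the other cKO libraries had between 2336 and 2352. WT replicate 3 and cKO replicate 4 are the libraries in which most core genes were lowest. The groups of Rpl7, Rpl7l1 and Rpl36a overlapped, and none of these genes passed the test.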

How the results depend on the processing

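The count of 0 called ribosomal protein genes held under all 17 alternatives, with the lowest adjusted p of a member between 0.327 and 0.911. The number with an unadjusted p under 0.05, which was 1 with all libraries, ran from 0 to 3 under the other alternatives and reached 6 of 87 without WT replicate 3 (among them Rpl26, Rpl35a, Rps20 and Rps7, lower in cKO, and Rps4l, higher), where 10.8% of all genes were under it. The median log2 fold change of the family ran from −0.07 without WT replicate 3 to 0.03 without cKO replicate 4, and was −0.07 under quantile normalization (0.01 over all genes) and −0.04 under scaling by total reads (−0.03 over all genes). The log2 ratio of summed reads ran from −0.08 to 0.03 over left-out libraries and from −0.07 to −0.02 otherwise. Of all genes, 5 were called, against 8 with array weights, 2 with the replicate block and 3 to 7 with a library left out, and the cause was not tested. Same-numbered libraries did not deviate together (correlations −0.0037, 0.0293, 0.0208 and −0.0396), so the replicate block has no basis in these data, and it called 0 ribosomal protein genes. Brpf1 kept its direction, with a log2 fold change from −0.63 to −0.53 and a limma adjusted p of 0.132, between 0.0619 and 0.647 over alternatives. The ribosomal protein genes named by rule, with Fau and Rack1, kept their side of the threshold in their 623 refits, and other genes named for their role or from the lists were not followed singly. Core genes had at least 1372 reads per library, and at the few reads of Rpl3l and Rpl39l no difference was detectable.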
